A study of Homo sapiens with 3 samples.

Results

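The day 3 LHX1-high mesoderm cells were the cells of the day 3 library in which at least 10 UMIs (unique molecular identifiers, each counted as 1 RNA molecule) of LHX1 were found. They were thus chosen by a measured value, the LHX1 count of each cell, and numbered 3389 of the 7261 day 3 cells kept, or 46.7% (exact 95% binomial interval 45.5 to 47.8%), and 3389 of the 18830 cells kept in the whole series. They were set against 2312 LHX1-low cells of the same library, which held 0 or 1 LHX1 UMI. The remaining 1560 cells held 2 to 9 and entered the stepwise comparison. Since LHX1 itself chose the members, its level in them, a median of 23 UMIs a cell and a range of 10 to 125, is a description.

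LHX1 encodes a LIM-homeobox transcription factor that is needed for head formation in the mouse embryo. It is transcribed in the primitive streak, the anterior mesendoderm and the node, later in the lateral and intermediate mesoderm, and in the kidney. Nascent mesoderm leaves the streak under BMP, WNT and NODAL signals, switches on MESP1 and gives up epithelial junctions, and its later fate depends on where and when it leaves. HOX genes are switched on in the order in which they lie in their clusters, so that cells formed late and far back carry the genes of high paralogue number.

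The series followed the human embryonic stem cell line UCLA1, 1 cell line in all samples, on days 1, 2 and 3 of a culture that its labels call GiMO, in which the cells lay beneath a layer of Geltrex, a gel of basement membrane proteins. There was 1 library a day, made on the 10x Genomics Chromium platform after trypsin dissociation. Genotype and line were shared by all 3 libraries; the labels name no treatment that differs between them, so the libraries differ in day and in anything else that was handled separately on each day, and these cannot be told apart. The day 1 library gave 3677 kept cells with a median of 42295 UMIs, day 2 gave 7892 cells with 16007.5 and day 3 gave 7261 cells with 19576. Between any 2 libraries 5 to 13 kept barcodes were shared, and 5 barcodes of LHX1-high cells were also seen on day 1 and 5 on day 2.

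All values within day 3 come from 1 library, so no test across samples could be made. Levels are given as CPM, the counts per 1e+06: the UMIs of a gene summed over the cells of a class, scaled to that total of UMIs, and every interval is an exact 95% interval that covers counting error only. LHX1-high cells were deeper than LHX1-low cells, with medians of 21467 and 17708.5 UMIs, and the share of mitochondrial UMIs had medians of 3.45 and 3.69%. A stricter comparison used the 889 LHX1-low cells with at least 3 UMIs of MESP1, the basic helix-loop-helix factor that marks nascent mesoderm, with a median depth of 19522 UMIs. These 889 cells are part of the 2312, and both comparisons use the same LHX1-high cells, so their results are not independent.

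The label of mesoderm was checked against the nascent mesoderm genes. Without correction for depth, at least 1 MESP1 UMI was present in 96.3% of LHX1-high cells and in 61.5% of LHX1-low cells. MESP1 stood at 371 CPM in LHX1-high, 196 in LHX1-low and 414 in MESP1-positive LHX1-low cells, a class chosen on MESP1. Not every mesoderm marker was higher: N-cadherin, CDH2, stood at 386, 362 and 401 CPM. The PDGF receptor PDGFRA stood at 99.4 CPM in LHX1-high, 24.9 in LHX1-low and 31.7 in MESP1-positive LHX1-low cells, and the apelin receptor APLNR, which marks mesoderm leaving the streak, at 360, 98.5 and 122 CPM. Markers of other cell types were mixed. The 5 pluripotency markers summed to 339 CPM in LHX1-high, 737 in LHX1-low and 596 in MESP1-positive LHX1-low cells, nearly all of it POU5F1, with SOX2 at 2.36 and NANOG at 3.32 CPM in LHX1-high cells. The 5 amnion markers summed to 25.1, 90.5 and 66.6 CPM, most of it ISL1, and the 5 endothelial markers to 72.6, 71.3 and 66.1, nearly all of it KDR, with TAL1 at 0. The 5 intermediate mesoderm markers summed to 19.9, 22 and 23.6 CPM, mostly PAX2 in LHX1-high cells, and the 5 axial markers to 15.5, 5.03 and 5.22, mostly GSC. The 4 neural markers summed to 0.387 CPM in LHX1-high cells, with SOX1 at 0.

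The 5 endoderm markers summed to 210 CPM in LHX1-high, 38.6 in LHX1-low and 23.7 in MESP1-positive LHX1-low cells, of which CER1 gave 191 in LHX1-high cells. SOX17 stood at 10.9, 18.9 and 7.25 CPM, CXCR4 at 5.60, 6.58 and 1.86, FOXA2 at 1.47, 0.927 and 0.320 and HHEX at 0.775, 0.324 and 0.639. CER1, SOX17, CXCR4 and FOXA2 were thus higher in LHX1-high than in MESP1-positive LHX1-low cells, and their part in the results below was not tested except where cells with a SOX17 or FOXA2 UMI are left out.

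A gene was called higher or lower when it reached at least 10 CPM in the higher class and differed at least 2-fold. Of 9954 genes that reached that level, 306 (3.07%) were higher and 622 (6.25%) were lower in LHX1-high than in LHX1-low cells, LHX1 left out. Against MESP1-positive LHX1-low cells 321 of 9785 genes (3.28%) were higher and 427 (4.36%) lower. Both comparisons called 265 genes (2.72% of 9733) higher and 367 (3.77%) lower. The genes below are the 15 highest and 10 lowest by the less extreme of the 2 ratios, followed by the members of gene lists and marker sets.

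The leading higher genes encoded signalling proteins, homeobox factors and long non-coding RNAs. NRG2, a neuregulin that signals through ERBB receptors, stood at 161 CPM in LHX1-high, 7.14 in LHX1-low and 5.70 in MESP1-positive LHX1-low cells, a ratio of 22.5 (20.1 to 25.3) over the first and 28.2 (23.3 to 34.5) over the other. With every cell weighted equally, as a mean of per-cell CPM, its ratio over LHX1-low cells was 13.2. IRX3, an Iroquois homeobox factor, stood at 202, 11.6 and 14.4 CPM, a ratio of 17.3 (15.9 to 19) over LHX1-low cells. SHISA6, a transmembrane partner of glutamate receptors in neurons, stood at 451, 39.6 and 44.4 CPM, a ratio of 11.4 (10.9 to 12). In GENCODE v44 on hg38 NRG2 lies on chromosome 5 (139846779 to 140043299, minus strand), IRX3 on chromosome 16 (54283304 to 54286787, minus strand) and SHISA6 on chromosome 17 (11241213 to 11564063, plus strand). In each of these 3 genes both LHX1-low classes lay close together and more than 10 times below the LHX1-high cells.

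CER1, the secreted antagonist of NODAL, BMP and WNT ligands first known from the anterior endoderm and mesendoderm, stood at 191 CPM in LHX1-high, 11.9 in LHX1-low and 13.6 in MESP1-positive LHX1-low cells, a ratio of 16.1 (14.7 to 17.6) over LHX1-low cells. EMX1, a homeobox gene known from the forebrain, stood at 19, 0.742 and 1.01 CPM. The adhesion protein DSCAM stood at 92.2, 8.90 and 6.39 CPM, the adaptor SH2D4B at 19, 1.53 and 1.28 CPM, and IRX5, which neighbours IRX3 on chromosome 16, at 10.0, 0.649 and 0.799 CPM. The highest ratio belonged to a gene of low level: OAS1, an antiviral oligoadenylate synthetase, stood at 13.5, 0.371 and 0.320 CPM, 36.5 times (22.4 to 64.1) the LHX1-low level, on 16 UMIs in that class. Of the day 3 UMIs of these 15 genes, between 78.0% (DSCAM) and 92.6% (OAS1) came from LHX1-high cells, which held 52.2% of all day 3 UMIs.

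6 of the 15 were long non-coding RNAs. LHX1-DT is transcribed away from LHX1 on the opposite strand of chromosome 17: in GENCODE v44 on hg38 its gene model ends at 36936670 and that of LHX1 begins at 36936785. It stood at 68.9 CPM in LHX1-high, 5.45 in LHX1-low and 5.54 in MESP1-positive LHX1-low cells. AL136119.1 stood at 66.4, 4.12 and 5.11 CPM, AC100801.1 at 41.0, 4.10 and 1.92, AC092078.2 at 31.5, 1.32 and 1.28, LINC00578 at 20.5, 1.51 and 1.44, and AC106744.1 at 20.4, 1.88 and 1.12. No function is assigned to these RNAs here.

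**Figure D1:**
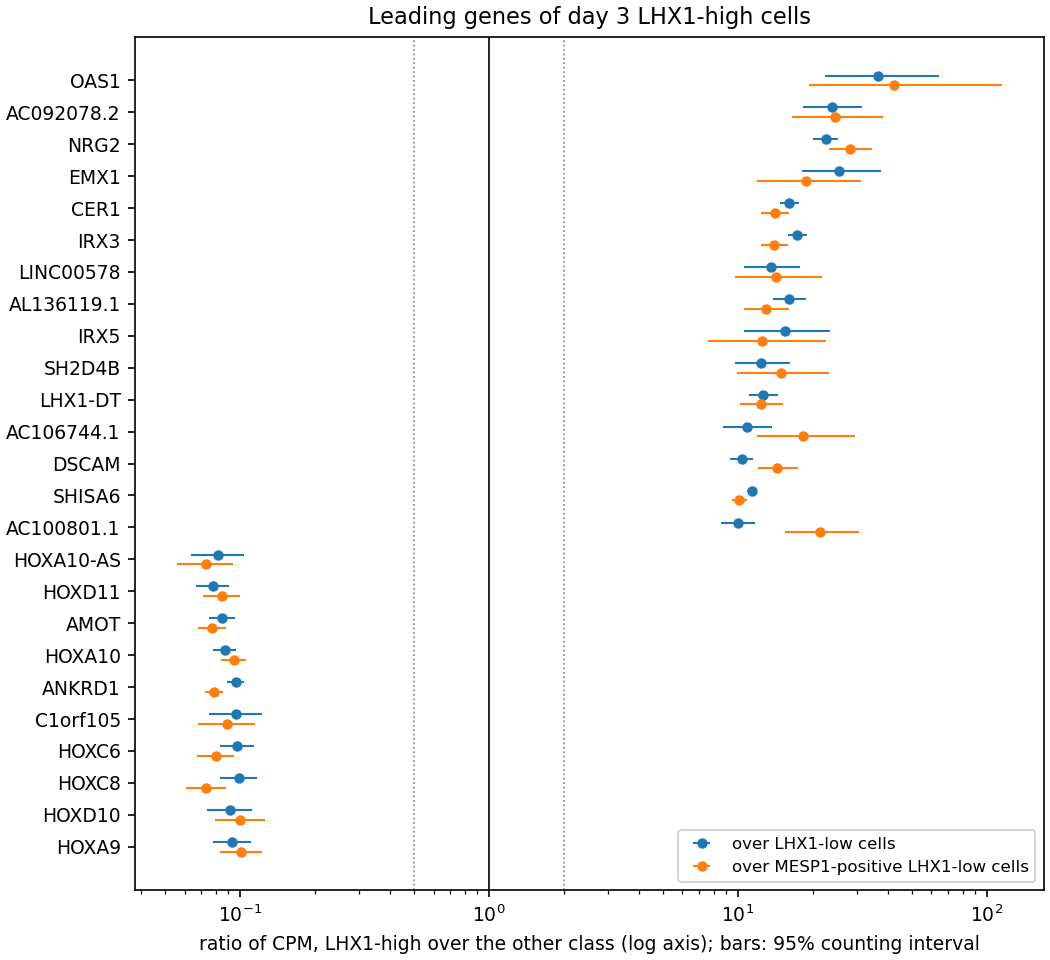
Ratio of CPM (x, log axis) in day 3 LHX1-high cells over LHX1-low cells (blue) and over MESP1-positive LHX1-low cells (orange) for the 25 leading genes (y), with 95% counting intervals. The 15 higher genes lie at 10.0 or above in both comparisons and the 10 lower genes at 0.101 or below, beyond the dotted lines at 0.5 and 2.

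The promoters of the higher genes were searched for TAATTA, a core motif of many homeodomain proteins, the LIM-homeobox family included. The motif reads the same on both strands. RefSeq windows (GRCh38.p14) from 250 bases before to 50 bases after the gene start were found for 189 of the 265 higher genes. TAATTA was in 3 of these 189 windows, or 1.59% (0.329 to 4.57%), and in 144 of the 7729 windows of all genes at this level, or 1.86%. The share among higher genes was thus near that of all genes. CER1 held it among the leading genes. The 250 bases upstream of its start, at chr9:14722734-14722983 on the minus strand, are shown 5′ to 3′ with the motif in capitals because CER1 is the leading gene with a match.
CER1: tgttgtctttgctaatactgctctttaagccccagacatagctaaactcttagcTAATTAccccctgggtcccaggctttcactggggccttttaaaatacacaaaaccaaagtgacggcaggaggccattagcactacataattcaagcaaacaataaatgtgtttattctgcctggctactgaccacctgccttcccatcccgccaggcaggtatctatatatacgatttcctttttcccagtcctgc

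Nascent mesoderm genes other than MESP1 were higher in LHX1-high cells, also than in MESP1-positive LHX1-low cells. A gene list was counted by a looser rule, at least 2 CPM and 1.5-fold with an interval that leaves out 1; by it 7.08% of 14432 genes were higher and 16.4% lower than in LHX1-low cells, with a median log2 ratio of -0.03 over all genes. Of 15 nascent mesoderm genes 11 were higher and 0 lower than in LHX1-low cells (median log2 ratio 1.68), with MESP1, on which the stricter class was chosen, among the 11. Against MESP1-positive LHX1-low cells 9 of the other 14 were higher and 0 lower (median 1.07), where 8.06% and 12.3% of 14228 genes were called. FOXC1, a forkhead factor of head and paraxial mesoderm, stood at 61.7 CPM in LHX1-high, 7.62 in LHX1-low and 13.3 in MESP1-positive LHX1-low cells. MESP2 stood at 50.9, 9.50 and 16.7 CPM, the Notch ligand DLL3 at 243, 73.2 and 130 and the WNT receptor ROR2 at 426, 133 and 181. LEF1, RSPO3, DLL1 and SNAI1 were called in neither direction in either comparison.

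The definitive endoderm list went from 1 higher and 2 lower of 7 genes against LHX1-low cells to 5 higher and 0 lower of 7 against MESP1-positive LHX1-low cells, the 5 being CER1, SOX17, CXCR4, PRDM1 and GATA4, with a median log2 ratio of 0.82 where that of all genes was 0.01. Only the comparison class was chosen on MESP1, not the LHX1-high cells. By that choice SOX17 went from 18.9 to 7.25 CPM and CXCR4 from 6.58 to 1.86 in the comparison class. Its part in the change of the list was not tested.

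The lists of later mesoderm were split. Of 18 lateral plate and cardiogenic genes at this level, 5 were higher and 10 lower than in LHX1-low cells. GATA6, a zinc-finger factor of heart and endoderm, stood at 355 CPM in LHX1-high, 77.0 in LHX1-low and 121 in MESP1-positive LHX1-low cells, a ratio of 4.61 (4.45 to 4.78) over LHX1-low cells, and the cardiac factor NKX2-5 at 15.3, 2.76 and 2.66 CPM. The forkhead factor FOXF1 stood at 21.3, 7.32 and 9.43 CPM. HAND2 stood at 1.92, 23.7 and 3.89 CPM, ISL1 at 19.4, 53.8 and 44.9, TBX20 at 10.5, 41.0 and 32.3, PRRX1 at 2.59, 43.9 and 18.2 and the Notch target HEY1 at 2.12, 23.1 and 14.3, so 5 genes of heart field and limb mesoderm were below both comparison classes. HAND1, at 475, 392 and 449 CPM, was called in neither.

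Of the paraxial genes 6 of 11 were higher and 3 lower than in LHX1-low cells. The presomitic factor MSGN1 stood at 12.3 CPM in LHX1-high, 28.9 in LHX1-low and 58.2 in MESP1-positive LHX1-low cells, while TBX6, its partner in the same tissue, stood at 32.6, 12.8 and 24.2 CPM. Of the intermediate mesoderm genes, where LHX1 itself acts later in development, 1 of 7 was higher than in LHX1-low cells, the paired-box factor PAX2 at 16.0 against 8.78 CPM, and 2 were lower, EYA1 at 2.50 against 11.5 and BMP7 at 4.93 against 13.4. Against MESP1-positive LHX1-low cells 0 of 8 were higher and 3 lower, and PAX2 stood at 16.0 against 11.6 CPM and was not called. Of the primitive streak genes 6 of 16 were higher and 6 lower. EOMES, a T-box factor of the anterior streak, stood at 171, 61.8 and 63.5 CPM and GSC, a homeobox gene of the organizer, at 14.9, 4.31 and 4.74, whereas TBXT stood at 50.3, 65.3 and 99.1.

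HOX genes led the lower genes. Of 26 HOX genes at 2 CPM or above 22 were lower than in LHX1-low cells and 2, HOXB2 and HOXB4, were higher. The median log2 ratio was -2.93, and -3.23 against MESP1-positive LHX1-low cells, where 22 were lower and 0 higher. 7 of the 10 leading lower genes were HOX genes or a HOX antisense RNA. HOXA10 stood at 5.17 CPM in LHX1-high, 59.3 in LHX1-low and 54.6 in MESP1-positive LHX1-low cells, 11.5-fold (10.3 to 12.8) below LHX1-low cells, and HOXD11 at 2.37, 30.5 and 28.0 CPM, 12.8-fold (11 to 15) below. HOXC6 stood at 2.32, 23.8 and 29.0 CPM, HOXC8 at 1.94, 19.5 and 26.4, HOXD10 at 1.35, 14.8 and 13.4, HOXA9 at 1.84, 19.7 and 18.1 and the antisense RNA HOXA10-AS at 0.974, 11.9 and 13.4. In GENCODE v44 the models of HOXA9, HOXA10 and HOXA10-AS overlap, as do those of HOXD10 and HOXD11, and HOXC8 lies within HOXC6; whether counting used the strand is not stated, so how UMIs were divided among them is uncertain.

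The difference varied among clusters, and with paralogue group within HOXB. Summed over the 12 genes of groups 1 to 4, the level was 109 CPM in LHX1-high, 101 in LHX1-low and 133 in MESP1-positive LHX1-low cells, mostly from HOXB2, HOXB3 and HOXB4. The 11 genes of groups 5 to 8 summed to 159, 288 and 369 CPM. The 16 genes of groups 9 to 13 summed to 33.7, 234 and 232 CPM, 6.96-fold (6.67 to 7.26) below LHX1-low cells. By cluster, the HOXB genes summed to 265, 341 and 433 CPM, 1.29-fold lower than in LHX1-low cells (1.26 to 1.31). The HOXA genes were 6.33-fold lower, the HOXC genes 10.4-fold and the HOXD genes 11.6-fold. The genes of the HOXB cluster were thus nearest to the comparison class. Outside HOXB, genes of low paralogue number were as far below LHX1-low cells as those of high number, HOXA3 at 0.132 and HOXC4 at 0.0918 times the LHX1-low level, and HOXA13 at 0.159 and HOXC10 at 0.106 times, so the sums by paralogue group also follow which cluster fills each group. HOXB6 alone gave 90.4, 137 and 190 CPM. CDX1, CDX2 and CDX4, caudal-type factors that act upstream of HOX genes, were lower too, CDX2 at 10.8, 46.3 and 66.1 CPM.

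**Figure D2:**
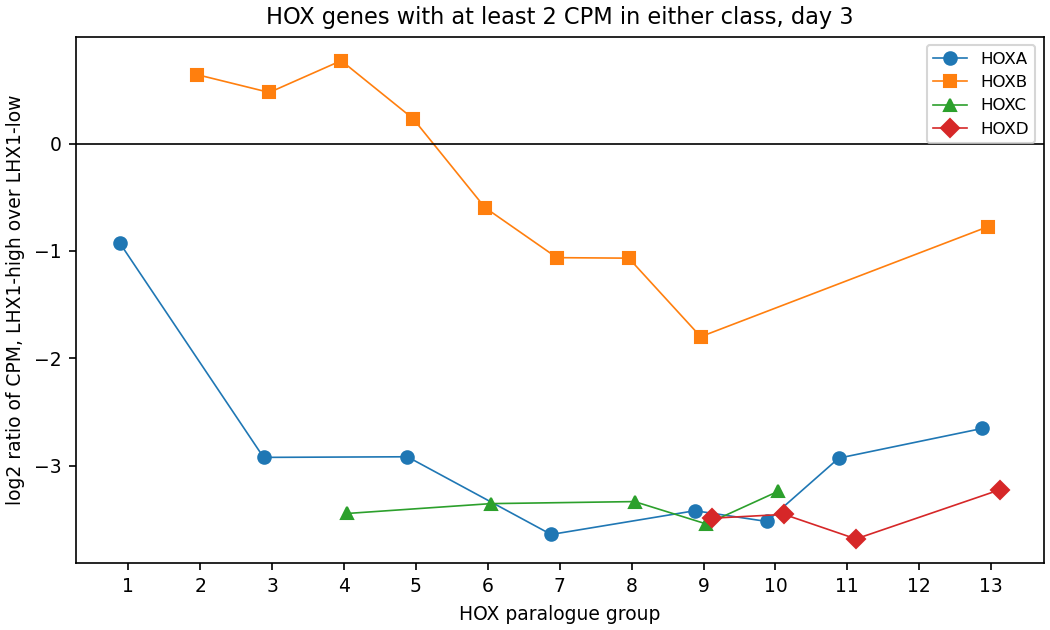
log2 ratio of CPM in LHX1-high over LHX1-low day 3 cells (y) for the HOX genes with at least 2 CPM in either class, by paralogue group (x) and cluster (colour and symbol). HOXB2 to HOXB5 lie above 0, HOXB6 to HOXB13 below it, and the points of the other 3 clusters from group 3 on lie below -2.

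The other 3 of the leading lower genes were AMOT, ANKRD1 and C1orf105. AMOT, angiomotin, a junction scaffold of the Hippo pathway, stood at 4.00 CPM in LHX1-high, 47.0 in LHX1-low and 51.5 in MESP1-positive LHX1-low cells, 11.8-fold (10.4 to 13.3) below LHX1-low cells. ANKRD1, a known target of the Hippo effector YAP, stood at 9.43, 98.0 and 120 CPM, and C1orf105 at 1.04, 10.7 and 11.7.

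Epithelial genes were lower in LHX1-high cells. Of 19 at this level 18 were lower than in LHX1-low cells and 0 higher, with a median log2 ratio of -2.12, and 17 were lower than in MESP1-positive LHX1-low cells. E-cadherin, CDH1, stood at 12.7 CPM in LHX1-high, 69.1 in LHX1-low and 60.4 in MESP1-positive LHX1-low cells, and EPCAM at 24.3, 142 and 103. The transcription factor GRHL2 stood at 7.21, 51.4 and 31.1 CPM and the splicing regulator ESRP1 at 10.1, 56.6 and 40.5. The mesenchymal list was split, with 6 of 18 higher and 5 lower. Cadherin-11, CDH11, stood at 750, 281 and 302 CPM, vimentin, VIM, at 992, 555 and 543, and ZEB1, a repressor of E-cadherin, at 95.8, 23.2 and 26.6, while fibronectin, FN1, stood at 134, 241 and 276.

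Genes of neighbouring identities were lower as well. Of 13 amnion genes 11 were lower and 0 higher than in LHX1-low cells, among them HPGD at 8.97 against 99.5 CPM and TFAP2C at 2.04 against 21.2. All 8 germ cell genes at this level were lower, but against MESP1-positive LHX1-low cells 5 of 7 were lower and 2, SOX17 and PRDM1, higher. Of 17 pluripotency genes 10 were lower and 0 higher. POU5F1 stood at 305, 565 and 500 CPM and the long non-coding RNA ESRG at 27.4, 127 and 84.3. SOX2 stood at 16.1 CPM in LHX1-low and 3.52 in MESP1-positive LHX1-low cells and TFAP2C at 21.2 and 5.59, so markers of other identities were lower in the stricter comparison class. In bulk sums of this kind fewer cells of a type and less RNA per cell cannot be told apart.

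BMP response genes differed in both directions. Of 15 BMP response genes 3 were higher and 5 lower than in LHX1-low cells, and 2 and 6 against MESP1-positive LHX1-low cells. The inhibitor of differentiation ID1 stood at 80.2 CPM in LHX1-high, 432 in LHX1-low and 451 in MESP1-positive LHX1-low cells, 5.39-fold (5.24 to 5.55) below LHX1-low cells, and ID4 at 31.4, 137 and 168. MSX1, a homeobox target of BMP, stood at 284, 91.0 and 119 CPM, and the ligands BMP2 and BMP4 at 163, 78.9 and 106 and at 470, 257 and 318. Among 7 extracellular modulators 3 were higher and 2 lower. The higher ones were CER1, follistatin, FST, at 165, 68.6 and 62.3 CPM, and BMPER at 502, 167 and 181.

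The NODAL genes differed in both directions. Of 14, 5 were higher and 5 lower than in LHX1-low cells, and 4 and 3 against MESP1-positive LHX1-low cells. NODAL stood at 11.1 CPM in LHX1-high, 62.5 in LHX1-low and 52.9 in MESP1-positive LHX1-low cells and its target and feedback inhibitor LEFTY2 at 8.11, 63.1 and 44.6. The higher genes were CER1, GSC, EOMES, MIXL1 and DACT1. MIXL1, a streak homeobox factor, stood at 412, 230 and 295 CPM.

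Of 16 WNT response genes 5 were higher and 3 lower than in LHX1-low cells, and 4 and 5 against MESP1-positive LHX1-low cells. LGR5, a receptor for R-spondins and a WNT target, stood at 238 CPM in LHX1-high, 19.2 in LHX1-low and 25.3 in MESP1-positive LHX1-low cells, a ratio of 12.4 (11.5 to 13.3) over LHX1-low cells. NKD1, a feedback inhibitor, stood at 196, 65.3 and 91.1 CPM, APCDD1 at 29.8, 15.3 and 11.7, and the secreted inhibitors DKK1 and DKK4 at 34.3, 21 and 26.9 and at 7.67, 2.78 and 4.10. AXIN2, the general WNT feedback gene, stood at 15.8, 17.9 and 16.4 CPM and was called in neither direction. In the FGF list 3 of 17 were higher and 4 lower, with the feedback genes divided: SPRY1 stood at 137, 47.4 and 33.7 CPM and DUSP6 at 53.6, 87.1 and 86.6.

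The families of the marker genes were counted with SHISA6, NRG2 and IRX3 included. These 3 are leading genes of the same comparisons, so the counts are a description. Of all genes at this level 7.08% were higher and 16.4% lower than in LHX1-low cells. Against MESP1-positive LHX1-low cells 8.06% were higher and 12.3% lower. Of the SHISA genes, SHISA6 included, 2 of 5 were higher and 1 lower than in LHX1-low cells. Against MESP1-positive LHX1-low cells 3 of 4 were higher and 0 lower. Of the neuregulins and ERBB receptors, NRG2 included, 2 of 7 were higher and 3 lower, and 3 and 1 in the stricter comparison. Of the Iroquois genes 2 of 3, the leading genes IRX3 and IRX5, were higher in both. LHX1 was the LIM-homeobox gene of LHX1-high cells: of the other LIM-homeobox genes only ISL1 was above 2 CPM in these cells. Its cofactors LDB1 and SSBP3 stood at 25.1 against 24.2 and at 161 against 179 CPM, and SSBP2 at 44 against 84.7. OTX2, a homeobox gene of the anterior embryo listed with LHX1 because both act in head formation, stood at 30.0, 6.91 and 6.87 CPM. NRG3 stood at 109, 41.3 and 27.3 CPM and NRG1 at 32.9, 29.4 and 41.0, and the receptor ERBB3 at 2.95, 17.4 and 8.79. Of the Iroquois genes IRX2 stood at 9.06, 9.87 and 8.15 CPM, and IRX1, IRX4 and IRX6 were below 2 CPM in each class.

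Guidance receptors and matrix genes differed in both directions. In the list of ephrins, semaphorins, netrins and slits 11 of 33 were higher and 14 lower. PLXNA2, a plexin receptor for semaphorins, stood at 483 CPM in LHX1-high, 88.3 in LHX1-low and 140 in MESP1-positive LHX1-low cells, and its partner NRP1 at 129, 60.4 and 50.4. SEMA6A stood at 81.7, 457 and 380 CPM, 5.59-fold (5.44 to 5.75) below LHX1-low cells, and ROBO2 at 50.3, 246 and 214. In the matrix and integrin list 7 of 27 were higher and 14 lower. Fibrillin-2, FBN2, stood at 971, 280 and 348 CPM and integrin alpha-5, ITGA5, at 162, 49.2 and 57.8. COL4A1 stood at 47.8, 130 and 94.1 CPM and ITGB8 at 13.3, 78.3 and 120.

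The cell cycle did not separate the classes by this rule. Of 15 S phase genes and 15 G2/M genes 0 were called in either direction in either comparison, with median log2 ratios of -0.17 and 0.08 against LHX1-low cells. Of 9 dissociation stress genes 0 were higher and 4 lower.

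The leading genes followed LHX1 in steps. Day 3 cells were divided into those with 0, 1, 2 to 4, 5 to 9, 10 to 19 and 20 or more LHX1 UMIs. NRG2 stood at 5.89, 9.62, 38.4, 72.9, 115 and 186 CPM over these 6 steps, IRX3 at 10.1, 14.6, 43.9, 100 and, in the 2 steps of LHX1-high cells, 154 and 227, and CER1 at 9.13, 17.4, 38.8, 79.7, 130 and 224. All 15 leading higher genes were higher at every step than at the step before. These genes were chosen as higher in the same cells, and the steps are cut on the LHX1 count that made the rule, so the order is a description. ID1 stood at 455, 389, 245, 130, 102 and 68.4 CPM over the 6 steps.

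The lower genes had their largest drop below the threshold. HOX groups 9 to 13 summed to 245, 214, 95, 48.2, 39.2 and 30.7 CPM over the 6 steps. HOXA10 stood at 61.2, 55.6, 16.4, 5.71, 6.08 and 4.68 CPM, and ANKRD1 at 104, 85.9, 33.7, 16.9, 13 and 7.49. Cells of 5 to 9 LHX1 UMIs, outside the members, thus had low levels of these genes already. Of the 10 leading lower genes 4 were lower at every step. The depth of the cells varied over the steps, with medians of 17401 UMIs at 0 and 22965.5 at 20 or more, and its part in the order was not tested.

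The threshold of 10 UMIs cut a continuous range. The 315 cells just outside it, with 8 or 9 LHX1 UMIs, and the 299 just inside it, with 10 or 11, stood at 89.9 and 86.6 CPM of NRG2, at 283 and 275 of SHISA6, at 121 and 123 of IRX3 and at 94.6 and 97.7 of CER1. MESP1 was found in 94.6% and 92.0% of them.

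**Figure D3:**
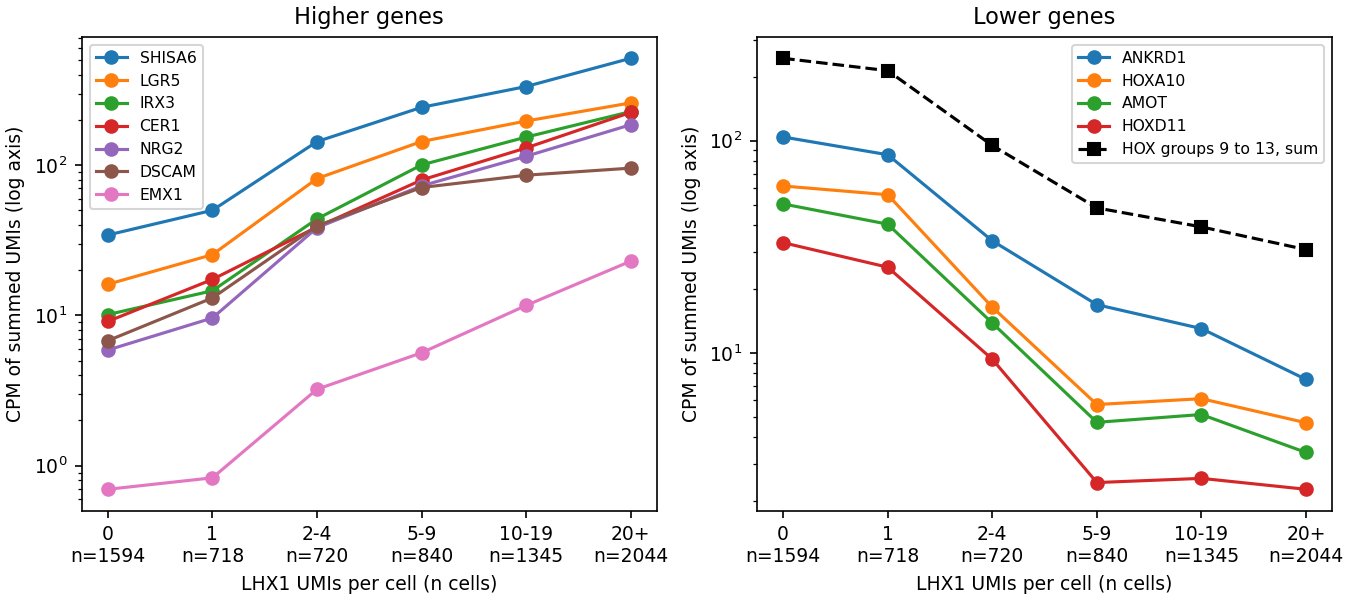
CPM of summed UMIs (y, log axis) of genes higher (left) and lower (right) in LHX1-high cells over 6 steps of the LHX1 UMI count (x, with the number of cells). NRG2 goes from 5.89 to 186 CPM, and the summed HOX genes of groups 9 to 13 from 245 to 30.7 CPM.

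Shares of cells with a UMI were compared with each cell thinned to 5000 UMIs, which left out 4 LHX1-high and 80 LHX1-low cells below that depth. NRG2 was found in 46.9% of LHX1-high cells (45.2 to 48.6%), 2.55% of LHX1-low and 1.80% of MESP1-positive LHX1-low cells, and SHISA6 in 75%, 14.2% and 16.5%. IRX3 was found in 58.6%, 5.24% and 7.20%, LGR5 in 62.0%, 7.80% and 10.2% and CER1 in 34.9%, 3.54% and 4.27%. Streak cells, defined here as LHX1-low cells with at least 3 TBXT UMIs and no MESP1, were set beside these classes. Germ cell markers summed to 209 CPM in them, against 56.3 in LHX1-low and 17.2 in LHX1-high cells. The part of germ cell-like cells among them was not tested. The streak cells had NRG2 in 2 of 53 cells (3.77%, 0.460 to 13%) and IRX3 in 0 of 53 (upper limit 6.72%). In the same cells SHISA6 was found in 9.43% (3.13 to 20.7%), LGR5 in 3.77% and CER1 in 7.55% (2.09 to 18.2%). The shares of NRG2, SHISA6, LGR5 and CER1 in both LHX1-low classes lie within the intervals of the streak cells, as does that of IRX3 in LHX1-low cells. The 7.20% of IRX3 in MESP1-positive LHX1-low cells lies above its limit. These intervals rest on 53 cells and are wide, so little is learned from lying within them. The part of free RNA in the low shares was not tested. Without thinning, NRG2 was found in 78.2% of LHX1-high and 9.73% of LHX1-low cells, SHISA6 in 93.7% and 32.3%, and IRX3 in 89.3% and 16.7%. TFAP2A was found in 1.27% of LHX1-high, 8.51% of LHX1-low and 6.64% of MESP1-positive LHX1-low cells.

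**Figure D4:**
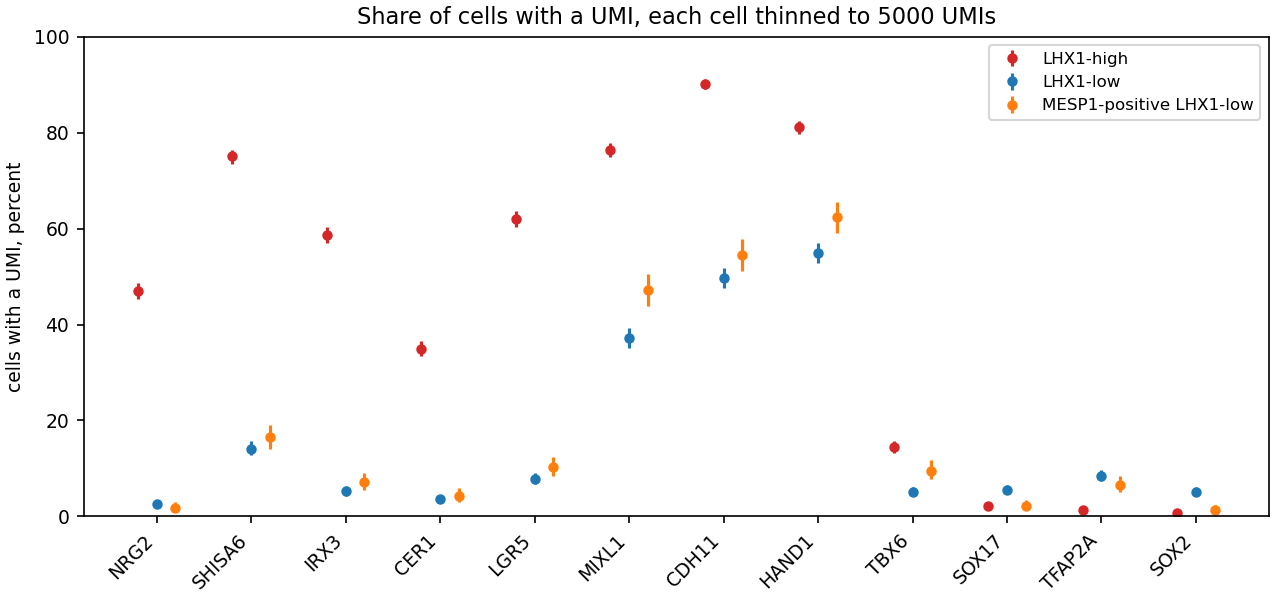
Percent of cells with at least 1 UMI of a gene (y) after thinning each cell to 5000 UMIs, for 12 genes (x) in LHX1-high (red), LHX1-low (blue) and MESP1-positive LHX1-low (orange) day 3 cells, with exact 95% binomial intervals. NRG2, SHISA6, IRX3, CER1 and LGR5 are in a larger share of LHX1-high cells than of both other classes, whereas SOX17, TFAP2A and SOX2 are in few cells of any class. NRG2, SHISA6, IRX3 and CER1 were chosen as higher in the same cells, so their shares are a description.

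Most members had a UMI of at least 1 marker, but the markers were not evenly held. Of the 3 genes NRG2, SHISA6 and IRX3, 26.7% of LHX1-high cells had a UMI of each at this depth, 37.5% of 2, 25.4% of 1 and 10.4% of none. Of LHX1-low cells 0.179% had all 3 and 80.2% none. NRG2 and IRX3 were found together in 31.1% of LHX1-high cells, and the product of their single shares was 27.5%. CER1 with other genes went in both directions. CER1 with HOXB2 was found in 4.82% of cells, where the product was 8.27%, and CER1 with FOXF1 in 1.86%, where it was 3.50%. With HAND1 the share was 24.8% and the product 28.4%. Shares above the product were found with EOMES (22.8%, product 18.8%), IRX3 (23.4%, 20.5%), MIXL1 (30.2%, 26.7%), GATA6 (29.5%, 27.0%) and GATA4 (17.6%, 15.7%). With TBX6 (5.49%, 4.75 to 6.32%) and TBXT (7.36%, 6.50 to 8.29%) the intervals held the products, 5.05% and 6.56%. SOX17 was found with NRG2 in 16 cells (0.473%, product 0.971%). Depth was fixed in these shares, but cells also differ in RNA content by type, and no test was made.

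The members were also divided by HAND1, a transcription factor known from lateral plate and extraembryonic tissue. At least 5 HAND1 UMIs were held by 2585 LHX1-high cells (76.3%), 0 or 1 by 275 (8.11%) and 2 to 4 by 529. LHX1 stood at 1135 CPM in the first and 1110 in the second of these, with medians of 25 and 17 UMIs a cell at median depths of 22563 and 17897 UMIs, and the part of depth in the split was not tested. The highest doublet scores, described below, were held by 293 of the 2585 HAND1-positive and 6 of the 275 HAND1-low members. The part of doublets in the split was not tested. Of 9759 genes at 10 CPM, 213 (2.18%) were at least 2-fold higher in HAND1-positive than in HAND1-low members and 248 (2.54%) lower, HAND1 left out. MESP1 stood at 369 CPM in HAND1-positive and 329 in HAND1-low members and IRX3 at 204 and 148.

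Genes higher in HAND1-low members came from several lists. CER1 stood at 132 CPM in HAND1-positive and 490 in HAND1-low members, SOX17 at 4.96 and 91.6, FOXA2 at 0.620 and 14 and DKK4 at 2.48 and 60.8. FGF17 stood at 11.4 and 81.0 CPM, OTX2 at 24.1 and 62.0 and CYP26A1, an enzyme that breaks down retinoic acid, at 25.8 and 118. Presomitic and streak genes were among them, TBX6 at 27.9 and 49.3 CPM, LFNG at 3.77 and 15.5 and TBXT at 45.7 and 75.4, as were the epithelial genes CLDN7 at 9.74 and 29.9 and GRHL2 at 5.95 and 17.7. Among the genes higher in HAND1-positive members, HOXB5 stood at 38.2 against 2.50 CPM and HOXB6 at 108 against 14. HOXB4 had 862 UMIs in HAND1-positive members and 0 in HAND1-low members, at least 23.2-fold higher against a floor of 3 counts over the class. NRG2 stood at 179 against 48.6 CPM, BMP4 at 522 against 182, CDH11 at 817 against 349, the WNT modulator TMEM88 at 81.8 against 15.2 and MEIS2, a HOX cofactor, at 101 against 26.3. OAS1 and EMX1, 2 of the leading genes, were also higher in HAND1-positive members, at 15.3 against 1.54 and 20.6 against 6.72 CPM, whereas AC092078.2 stood at 24.4 against 55.9.

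A SOX17 or FOXA2 UMI was held by 51 of the 275 HAND1-low members (18.5%, 14.1 to 23.7%) and by 90 of the 2585 HAND1-positive ones (3.48%, 2.81 to 4.26%). Without these cells, 224 HAND1-low and 2495 HAND1-positive members were left. CER1 then stood at 492 against 133 CPM, DKK4 at 54.2 against 2.40, FGF17 at 76.1 against 10.9, HOXB5 at 2.38 against 38.5 and NRG2 at 54.5 against 183. These differences were of like size among members in which neither endoderm gene was detected.

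**Figure D5:**
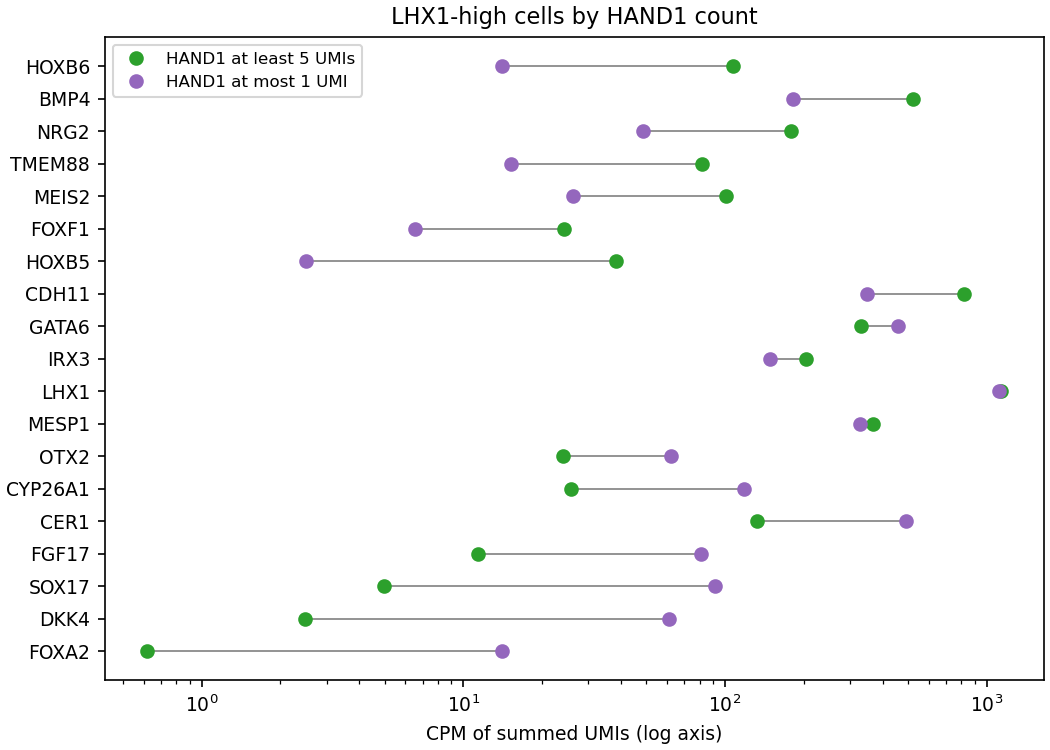
CPM of summed UMIs (x, log axis) of 19 genes (y) in LHX1-high cells with at least 5 HAND1 UMIs (green) and at most 1 (purple). LHX1 and MESP1 lie close together, HOXB5, TMEM88, MEIS2 and NRG2 are lower in the HAND1-low members, and CER1, FGF17, SOX17, DKK4 and FOXA2 are higher.

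Other mesoderm rules of day 3 cut across the members. The paraxial rule, at least 5 UMIs of TBX6 and MSGN1 together, was met by 145 LHX1-high cells (4.28%) and 110 LHX1-low cells (4.76%). At least 10 HAND1 UMIs with a UMI of HAND2 or ISL1 were found in 672 LHX1-high (19.8%) and 485 LHX1-low cells (21%). The streak rule was met by 1 LHX1-high cell and by 54 LHX1-low cells. A SOX17 or FOXA2 UMI was found in 162 LHX1-high cells (4.78%) and 227 LHX1-low cells (9.82%). In the LHX1-low cells of the 3 mesoderm and streak rules, the markers stayed low: NRG2 stood at 3.83 CPM in paraxial, 7.29 in lateral and 2.60 in streak cells, SHISA6 at 45.2, 49.6 and 14.7, and IRX3 at 21.8, 12 and 4.33. HOXA10 stood at 50.5 CPM in paraxial, 115 in lateral and 6.06 in streak cells, and at 5.17 CPM in LHX1-high cells. The HOX genes as a whole were not near the level of the streak cells. Groups 1 to 4 summed to 109 CPM in LHX1-high and 9.52 in streak cells, groups 5 to 8 to 159 and 12.1, and groups 9 to 13 to 33.7 and 15.6.

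On the earlier days few cells met the rule. LHX1 stood at 2.25 CPM on day 1, 28.1 on day 2 and 656 on day 3. At least 10 LHX1 UMIs were found in 0 of 3677 cells on day 1 (upper limit 0.100%), in 74 of 7892 on day 2 (0.938%, 0.737 to 1.18%) and in 46.7% on day 3. The day 2 cells come from a library that the rule did not use, and they were compared with the 7309 day 2 cells with 0 or 1 LHX1 UMI.

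The markers NRG2, SHISA6 and IRX3, with CER1 and LGR5, were higher in the 74 day 2 cells. NRG2 stood at 28.1 CPM in them and 1.21 in day 2 LHX1-low cells, SHISA6 at 163 and 7.10, IRX3 at 73.8 and 2.59, CER1 at 730 and 23.0 and LGR5 at 111 and 5.15. Of the 15 leading genes 11 reached 10 CPM there, most of them only in the 74 cells, so that a call was then fixed by the minimum and no count is drawn from them. The other 4 rested on 1 to 12 UMIs, 1 for OAS1, 3 for IRX5, 5 for EMX1 and 12 for SH2D4B. On day 2, 489 of 10074 genes (4.85%) were higher and 536 (5.32%) lower. With a lower threshold of 2 LHX1 UMIs against 0, which gave 583 and 6646 cells, NRG2 stood at 8.20 and 1.20 CPM, SHISA6 at 61.3 and 6.54 and IRX3 at 31.7 and 2.20.

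Against the 850 day 2 LHX1-low cells with at least 3 MESP1 UMIs, 359 of 9854 genes (3.64%) were higher and 189 (1.92%) lower. In these 850 cells NRG2 stood at 2.05 CPM, SHISA6 at 17.2, IRX3 at 8.68, CER1 at 65.5 and LGR5 at 19.3, each below the 74 cells. A SOX17 UMI was held by 10 of the 74 cells, and SOX17 stood at 47.1 CPM against 5.17. Without the cells holding a SOX17 or FOXA2 UMI, 64 day 2 LHX1-high cells were left, in which CER1 stood at 611 against 20.5 CPM and NRG2 at 32.9 against 1.19.

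The lower genes of day 3 could not be followed on day 2 for the HOX genes, because they were low in all day 2 cells. Of the 6 leading HOX genes and HOXA10-AS, none exceeded 0.345 CPM in day 2 LHX1-low cells, and 1 UMI of HOXC6 was found in the 74 cells. ID1 stood at 178 CPM in the 74 cells and 467 in day 2 LHX1-low cells, and EPCAM at 74.5 and 176. In the 850 MESP1-positive cells ID1 stood at 447 CPM and EPCAM at 149.

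On day 1 the comparison was of 52 cells with at least 2 LHX1 UMIs and 3354 with 0. There 60 of 9365 genes (0.641%) were higher and 1 (0.0107%) lower. NRG2 stood at 0.882 against 0.811 CPM, SHISA6 at 3.82 against 3.05 and IRX3 at 0.882 against 0.739, on 3, 13 and 3 UMIs. The 52 cells were deeper, with a median of 67553 against 40985 UMIs, and the part of depth in these values was not tested. No day 1 cell held more than 5 LHX1 UMIs, in the deepest of the 3 libraries.

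Doublets, droplets holding 2 cells, bear on the rule because a doublet with an LHX1-high cell counts as LHX1-high. No cell was removed for this in the values above. Of the 457 day 3 cells with the highest doublet scores 336 were LHX1-high (9.91% of that class, median 36321.5 UMIs) and 33 LHX1-low (1.43%). Without the 457 cells, HOXA10 was 18.9-fold lower than in LHX1-low cells instead of 11.5-fold, HOXD11 25.7-fold instead of 12.8-fold, AMOT 18.2-fold, ANKRD1 16.8-fold and HOX groups 9 to 13 9.59-fold instead of 6.96-fold. All 10 leading lower genes moved by more than 1.5 times in this way, and none of the 15 leading higher genes did. The summed level of HOX groups 9 to 13 in LHX1-high cells was 24.5 CPM without the cells of high doublet score and 33.7 with them.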

How the data were processed

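The series holds 3 single-cell RNA libraries, on days 1, 2 and 3. The deposited values are UMI counts per gene and barcode over 36601 genes, which the authors made with Cell Ranger 5.0.1 on hg38, per the submitters' processing notes; the sources used here give no other setting. A barcode was kept if it had 1000 or more genes and MT- genes gave no more than 20% of its UMIs. Counts were summed per class and scaled to CPM; ratios have exact conditional binomial intervals at 95%. The members and the 35 gene lists were chosen with earlier results of these data known. The text names the 15 highest and 10 lowest genes by the less extreme ratio, MT- and ribosomal protein genes left out, and members of lists and marker sets. The doublet score compared each cell with simulated sums of 2 cells, and the highest were taken by rank, at 0.8% per 1000 barcodes. The calculation was checked on simulated data. Python with numpy 2.4.6, scipy 1.17.1, pandas 2.3.3 and scikit-learn 1.9.0 was used. With 1 library a day there are no replicates, and no p-value is given.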

Additional observations from a re-analysis of the deposited data

How the results depend on the processing

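Counts of higher and lower genes depend on the minimum level. With a minimum of 50 CPM, 137 genes were higher and 158 lower than in LHX1-low cells, and 126 and 123 against MESP1-positive LHX1-low cells. With no minimum of CPM but at least 10 UMIs, the counts were 1554, 2868, 2106 and 1546. Under the other planned settings, which were a mean of per-cell CPM, weighting by depth, LHX1 thresholds of 5 and 20 UMIs, LHX1-low at 0, cells thinned to 10000 UMIs, removal of the highest doublet scores, a limit of 10% mitochondrial UMIs and scaling by the median ratio, each count stayed within 1.5 times of its main value. The same held without cells with a SOX17 or FOXA2 UMI, an alternative chosen after seeing the data. The 25 leading genes stayed at least 2-fold apart in their direction under each of these settings. A mean of per-cell CPM moved 9 of them by more than 1.5 times against LHX1-low cells, and NRG2 then stood at a ratio of 13.2 instead of 22.5. With LHX1 from 2 UMIs against 0, the day 2 counts were 247 higher and 216 lower. No paired analysis was possible because each day has 1 library. Differences of genes at few UMIs, such as OAS1 and IRX5 in the comparison classes, are limited by depth.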

Other observations

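OAS1, the leading gene by ratio, is known as an interferon-induced gene, and 2 other such genes, chosen after the values were seen, were not higher with it. ISG15 stood at 6.25 CPM in LHX1-high, 11.3 in LHX1-low and 12.7 in MESP1-positive LHX1-low cells and IFIT1 at 0.500, 1.32 and 1.70. Among genes related to AMOT and ANKRD1, also chosen after the values were seen, the YAP targets CCN1 and CCN2 stood at 3.60, 18.6 and 15.4 and at 6.25, 13.3 and 12.2 CPM. AMOTL1, a paralogue of AMOT, stood at 207, 90.4 and 94.4 CPM and AMOTL2 at 51.1, 49.2 and 48.3, so AMOT was lower, AMOTL1 higher and AMOTL2 near its level in the comparison classes.

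Of 7 further short motifs counted on both strands in the same promoter windows, after the data were seen, AGATAA, a form of the GATA factor motif, was in 22 of the 189 windows of higher genes (11.6%, 7.44 to 17.1%), in 6.38% of 235 windows of lower genes and in 4.55% of the 7729 windows of all genes at this level. TGACAG was in 20.1%, 12.8% and 12.3%, TGTTT in 39.2%, 40.9% and 30.5%, TAAT in 38.6%, 42.6% and 34.9%, GATTA in 14.3%, 17.0% and 11.7%, GTGTGA in 10.6%, 9.79% and 8.42% and CACCTG in 15.3%, 24.3% and 16.0%. The windows of higher genes and of all genes had the same median content of G and C, 65.7%. Windows were found for 71.3% of the higher genes and 79.4% of all. These are shares of letters, with no test and no evidence of binding. Among the leading genes, OAS1, NRG2 and SH2D4B held AGATAA. For NRG2 the 250 bases upstream of the start, chr5:140043300-140043549 on the minus strand in GRCh38.p14, are shown 5′ to 3′ with the match, read here on the opposite strand as TTATCT, in capitals.
NRG2: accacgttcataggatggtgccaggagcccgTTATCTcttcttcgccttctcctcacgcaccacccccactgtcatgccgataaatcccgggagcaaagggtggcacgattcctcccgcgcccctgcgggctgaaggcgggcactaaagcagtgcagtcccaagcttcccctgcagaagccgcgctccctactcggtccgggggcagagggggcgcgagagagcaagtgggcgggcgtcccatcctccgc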
